A study of Xenopus tropicalis with 18 samples.

Results

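*gata2* and *gata3* encode zinc finger transcription factors of the GATA family, which bind GATA-containing DNA and switch on tissue-specific genes. In *Xenopus* both are active in the ventral, non-neural ectoderm, downstream of BMP signalling, and *gata2* also has an early role in ventral mesoderm and blood. Their relatives *gata4*, *gata5* and *gata6* act mainly in endoderm and heart, and *gata1* in red blood cells. The rows named *gata2* and *gata3* were taken by name from the count tables, so they are 2 of 28850 genes and were not picked by a cut-off on their values. On the V10.0 *X. tropicalis* assembly the *gata2* gene lies on chromosome 4 from 135403346 to 135415633 and *gata3* on chromosome 3 from 83617211 to 83636178. Both are annotated as protein coding.

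The study asked what the maternal ectodermal transcription factors Foxi2 and Sox3 do in the early embryo. Poly(A) RNA was sequenced from whole *Xenopus tropicalis* embryos that had received a translation-blocking morpholino (MO) against *foxi2* or *sox3* in the animal hemisphere, and from controls. Embryos were taken at early gastrula (stage 10.5), when the germ layers have begun to move, and at late blastula (stage 9), soon after the embryonic genome switches on. There were 2 Foxi2 morphant and 2 control libraries at early gastrula, 3 and 3 at late blastula, and 2 Sox3 morphant and 2 control libraries at each stage, which gives 9 morphant and 9 control libraries in all. All embryos were wild type in genotype. The design text calls the comparison embryos wild type, while the sample records give morpholino as the treatment of every library, so whether controls received any injection was not clear. The sources did not give the number of embryos in a library or say that replicates came from separate clutches, so the p-values measure the spread between these libraries only, which may be partly technical. A blocked translation need not lower the transcript, and the levels of *foxi2* and *sox3* RNA were not below those of controls on average in their own morphants.

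Library totals ran from 12740571 to 27866261 counts. Levels are given as CPM, the counts of a gene scaled to the library total. Without transcript lengths the level of *gata2* cannot be set against that of *gata3*, and each gene is compared only with itself between libraries. Libraries of whole embryos hold every germ layer: the summed level of 10 endoderm markers ran from 25.6 to 3560 CPM and that of 8 mesoderm markers from 517 to 2690 CPM. The name ectodermal could therefore not be checked for either gene in these data. The blood marker *gata1* was at 0 in 14 of 18 libraries and at most at 0.15 CPM. The Foxi2 late blastula libraries differed widely by replicate number, in morphants and controls alike, and results that rest on them are given with and without single libraries.

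Both genes were barely detected in most late blastula controls and clearly present at early gastrula. In early gastrula controls *gata2* stood at 203 and 81.3 CPM in the Foxi2 series and at 119 and 197 CPM in the Sox3 series. In late blastula controls it stood at 0.805, 4.06 and 86.0 CPM in the Foxi2 series and at 1.72 and 2.62 CPM in the Sox3 series. The stages were far apart in the Sox3 series, whereas in the Foxi2 series the late blastula library of replicate 3 lay just above the lower of the early gastrula libraries.

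*gata3* followed the same course at far fewer counts. In early gastrula controls it had 15.6 and 1.52 CPM in the Foxi2 series and 4.07 and 4.92 CPM in the Sox3 series. In late blastula controls it had 0.0575, 0.280 and 5.73 CPM in the Foxi2 series and 0.126 and 0.0737 CPM in the Sox3 series. The same late blastula library of replicate 3 again reached the early gastrula range, and the other 4 rested on 1 to 4 counts each.

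Across the 9 control libraries, with the series as a term, the early gastrula over late blastula log2 fold change was 4.15 (SE 1.50) for *gata2*, with an adjusted p of 0.104 in the edgeR quasi-likelihood test with Benjamini-Hochberg adjustment. For *gata3* it was 3.56 (SE 1.40) with an edgeR adjusted p of 0.124. A gene was called when its adjusted p was under 0.05 and its log2 fold change was at least 1 in size. Neither gene was called, and 0% of the 14785 genes tested were, although 4669 had an unadjusted p under 0.05 and DESeq2 called 1523 (10.5%). DESeq2 itself returned no p for either gene in this comparison.

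Within the Sox3 series alone both genes rose at early gastrula and both were called, and neither gene's stages overlapped, as was so for 29.4% of all genes in the upward direction. The log2 fold change was 6.23 (SE 0.42, edgeR adjusted p 0.00496) for *gata2* and 5.50 (SE 0.58, edgeR adjusted p 0.00882) for *gata3*, in a fit that called 14.1% of all genes tested. Within the Foxi2 series alone the log2 fold changes were 2.32 for *gata2* and 2.19 for *gata3*, with edgeR adjusted p-values of 0.701 and 0.713. The single Foxi2 late blastula control of replicate 3 decided the pooled outcome. Without it, the pooled log2 fold change was 6.18 (edgeR adjusted p 0.0014) for *gata2* and 5.68 (edgeR adjusted p 0.00296) for *gata3*, and both were called, in a fit that called 15.5% of all genes.

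**Figure D1:**
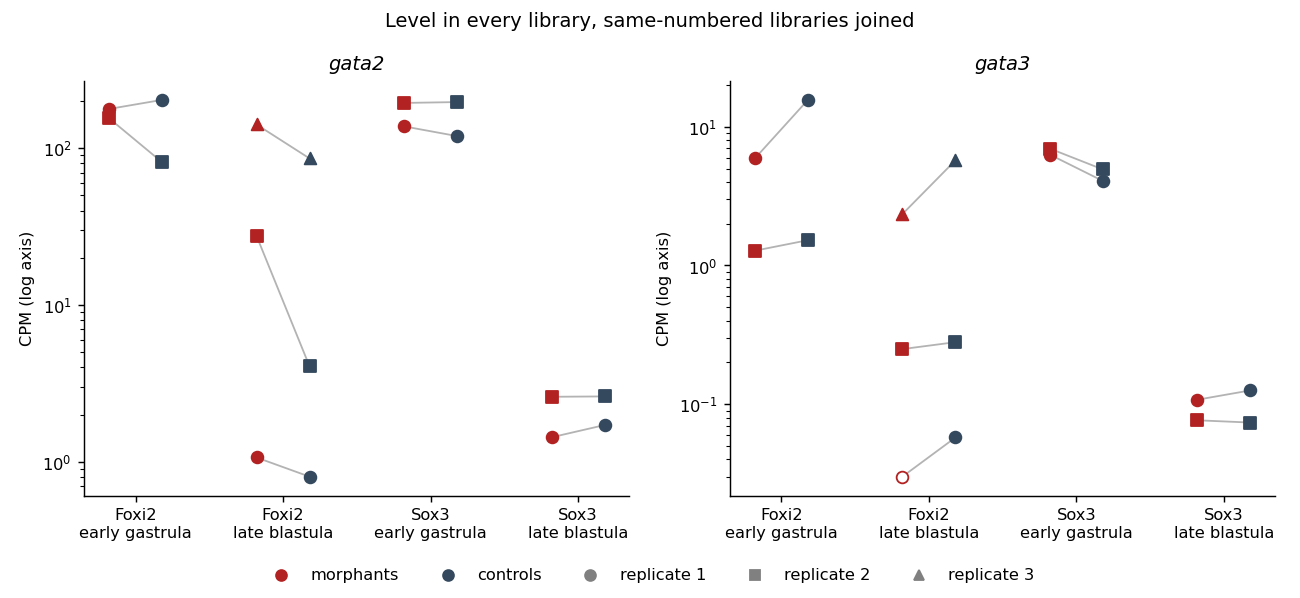
Level of *gata2* (left) and *gata3* (right) in each of the 18 libraries, in CPM on a log axis, with morphants in red and controls in dark blue, marker shapes for replicate numbers and grey lines joining libraries of the same number. The open circle is a morphant library with 0 *gata3* counts, drawn at the bottom of the axis. The Sox3 late blastula libraries all lie between 1.44 and 2.62 CPM for *gata2*, while the Foxi2 late blastula libraries span 0.805 to 142 CPM.

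The spread between replicates was the main feature of both genes in the Foxi2 series. At late blastula the highest *gata2* level was 133 times the lowest among Foxi2 morphants and 107 times the lowest among their controls. Among the 12802 genes tested there, only 69 (0.539%) had a wider range between the 3 controls than *gata2* on the log2 scale. Replicate number accounted for 91.4% of the variation of *gata2* among those 6 libraries, and the split into morphants and controls for 5.01%. For *gata2* a large replicate share was not limited to Foxi2 libraries. It was 95.4% among Sox3 late blastula libraries and 96.7% among Sox3 early gastrula libraries, with 2.59% and 1.2% for the split. Among Foxi2 early gastrula libraries it was lower, at 60.3%, with 12.3% for the split. For *gata3* the replicate share was 87.4% among Foxi2 early gastrula libraries, with 7.99% for the split. Among Sox3 early gastrula libraries *gata3* showed the reverse, with 15.4% for replicate number and 84.1% for the split. In the Sox3 late blastula libraries 21.9% of genes had a wider range between controls than *gata2*.

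At early gastrula, *gata2* averaged 167 ± 16 CPM in Foxi2 morphants and 142 ± 86.3 in their controls, and 166 ± 40.0 in Sox3 morphants and 158 ± 54.7 in theirs (SD, n = 2 each). At late blastula it averaged 56.8 ± 74.7 CPM in Foxi2 morphants and 30.3 ± 48.3 in their controls (SD, n = 3 each), and 2.02 ± 0.825 in Sox3 morphants and 2.17 ± 0.635 in theirs (SD, n = 2 each). From the highest mean down, the order was Foxi2 morphants, Sox3 morphants, Sox3 controls and Foxi2 controls at early gastrula, then Foxi2 morphants, Foxi2 controls, Sox3 controls and Sox3 morphants at late blastula. No neighbours in this order differed by more than the larger of their SDs.

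At early gastrula, *gata3* averaged 3.59 ± 3.27 CPM in Foxi2 morphants and 8.58 ± 9.98 in their controls, and 6.63 ± 0.466 in Sox3 morphants and 4.50 ± 0.608 in theirs (SD, n = 2 each). At late blastula it averaged 0.865 ± 1.29 CPM in Foxi2 morphants and 2.02 ± 3.21 in their controls (SD, n = 3 each), and was at or below 0.126 CPM in every Sox3 series library. Its order at early gastrula was Foxi2 controls, Sox3 morphants, Sox3 controls and Foxi2 morphants. The Sox3 morphants and Sox3 controls differed by more than the larger of their SDs, and the other neighbours did not.

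At late blastula, *gata2* was higher in the Foxi2 morphant than in the control of the same number in all 3 pairs, but by very different amounts. Foxi2 morphants had 1.07, 27.6 and 142 CPM, against 0.805, 4.06 and 86.0 CPM in their controls. The groups overlapped, because replicate 1 was low and replicate 3 high on both sides. The morphant over control ratio was 1.33 in replicate 1, where a 95% counting interval of 0.623 to 2.88 included no difference. It was 6.81 (5.17 to 9.11) in replicate 2 and 1.65 (1.53 to 1.77) in replicate 3. These intervals cover counting error only.

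The log2 fold change of *gata2* over the 3 morphants and 3 controls was 0.90 (SE 1.99, edgeR adjusted p 1). It was not called, nor was any gene there: 0% of 12802 genes passed, 145 had an unadjusted p under 0.05, and DESeq2 called 20 (0.101%), without *gata2*. With the replicate number as a block, which removes the difference between numbers, the log2 fold change was 1.35 (SE 0.37) with an unadjusted edgeR p of 0.00777 and an adjusted p of 0.143. That fit called 0.719% of all genes, *gata2* not among them. Across all genes tested, 18.3% were higher in the morphant in every pair. In a whole embryo, fewer cells that make a transcript and less transcript per cell cannot be told apart, for this and all later results.

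Single libraries set the size and even the sign. Leaving out the Foxi2 morphant of replicate 3 turned the log2 fold change to -1.15, and over all such omissions it ran from -1.15 to 4.63. With the block kept, it was 1.39 without pair 1, 0.70 without pair 2 and 2.28 without pair 3, with edgeR adjusted p-values of 0.0920, 0.111 and 0.102.

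Endoderm markers moved with the same libraries. Their summed level was 25.6, 858 and 2020 CPM in Foxi2 morphants of replicates 1 to 3, against 26.6, 390 and 1390 CPM in their controls, so it too was highest in replicate 3 on both sides, and the ratio of morphant to control was largest within replicate 2. The pattern was not particular to endoderm. Organizer markers had 34.8, 666 and 819 CPM against 37.4, 376 and 592 CPM, with the largest ratio (1.77) in replicate 2. Mesoderm markers had 544, 994 and 2080 CPM against 517, 786 and 1680 CPM, with ratios of 1.26 in replicate 2 and 1.24 in replicate 3. All 10 endoderm markers were tested and 0 were called. The part of these lists in the *gata2* values was not tested.

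*gata3* was likewise highest in replicate 3 on both sides, but unlike *gata2* it was not higher in the Foxi2 morphant in any late blastula pair. Foxi2 morphants at late blastula had 0, 0.249 and 2.34 CPM, which stands for 0, 4 and 34 counts, against 0.0575, 0.280 and 5.73 CPM in controls, which stands for 1, 4 and 73 counts. Only replicate 3 had enough counts on both sides for a precise ratio, which was 0.409 (95% counting interval 0.264 to 0.623). In replicate 2 the ratio was 0.891 with an interval from 0.166 to 4.78, so no difference was detectable at that depth. Replicate 1 gave no ratio, both counts being at or under a floor of 3. The gene failed the filter on low counts in this comparison. With every gene of at least 1 count kept, its log2 fold change was -1.22 (SE 1.92, edgeR adjusted p 1).

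At early gastrula the Foxi2 pairs went opposite ways for *gata2*. Foxi2 morphants had 178 and 155 CPM, against 203 and 81.3 CPM in controls, so both morphants lay between the controls. The ratio was 0.875 (0.833 to 0.919) in replicate 1 and 1.91 (1.77 to 2.06) in replicate 2. Both intervals left out 1, on opposite sides, so counting error did not span the gap between the pairs. Its log2 fold change was 0.22 (SE 0.50, edgeR adjusted p 1), and 0.36 (SE 0.22, edgeR adjusted p 0.443) with the replicate block.

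*gata3* was lower in the Foxi2 morphant in both early gastrula pairs. Foxi2 morphants had 5.91 and 1.28 CPM, against 15.6 and 1.52 CPM in controls, and the groups overlapped because replicate 2 was low on both sides. The ratio was 0.378 (0.295 to 0.480) in replicate 1 and 0.840 (0.413 to 1.69) in replicate 2, the second resting on 17 and 20 counts. Among all genes tested, 32.4% were lower in both pairs. The log2 fold change was -1.26 (SE 1.38, edgeR adjusted p 1), and -1.11 (SE 0.28, edgeR adjusted p 0.0687) with the block.

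Neither gene was called in this comparison, in which 0% of 13215 genes passed, 277 had an unadjusted p under 0.05 and DESeq2 called 28 (0.195%). The block called 1.47% of genes and neither of the 2. A single control weighed heavily on *gata3*: without the Foxi2 control of replicate 1 its log2 fold change was 1.31 instead of -1.26. The study names *gata3* among the targets specific to Foxi2, which it defined by a change of expression in morphants together with a binding site near the gene. Binding was not examined here.

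**Figure D2:**
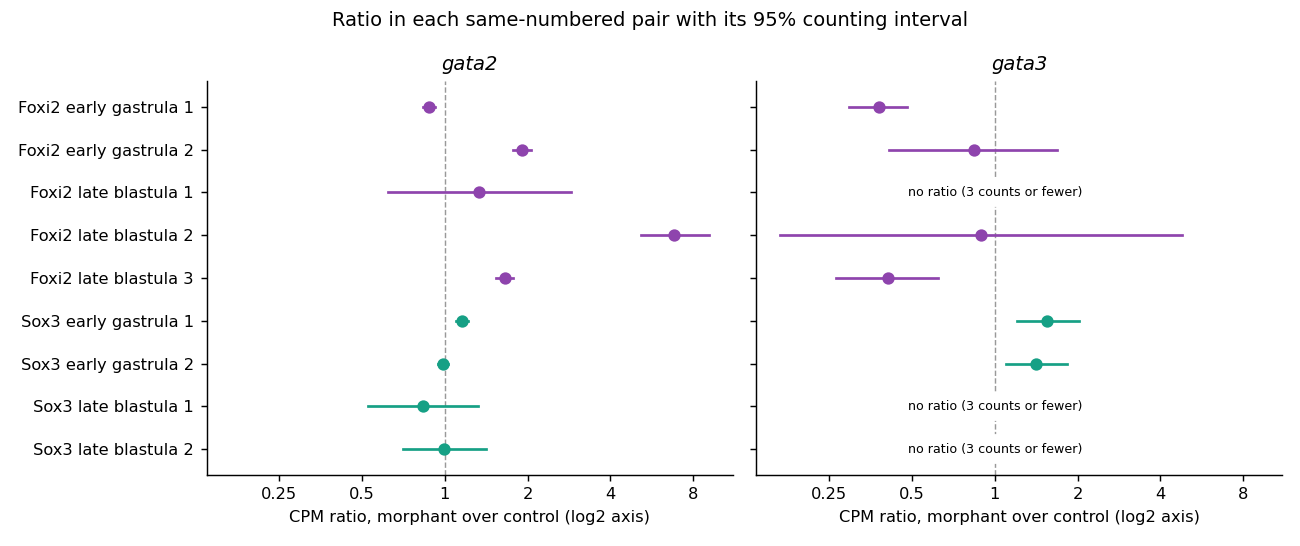
Ratio of the morphant to the control CPM in each of the 9 pairs of libraries with the same replicate number, on a log2 axis, for *gata2* (left) and *gata3* (right), with Foxi2 pairs in purple and Sox3 pairs in green. Bars are 95% counting intervals and the dashed line marks no difference. All 3 Foxi2 late blastula pairs lie above 1 for *gata2*, from 1.33 to 6.81, and all 4 Foxi2 pairs with a *gata3* ratio lie below 1, from 0.378 to 0.891.

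Sox3 knockdown left *gata2* close to its controls in every pair. At late blastula Sox3 morphants had 1.44 and 2.60 CPM, against 1.72 and 2.62 CPM in controls, and the groups overlapped. The ratios were 0.836 (0.527 to 1.32) and 0.995 (0.703 to 1.41). The log2 fold change was -0.11 (SE 0.51, edgeR adjusted p 1). Both intervals included no difference and were wide, so the counts do not show equal levels.

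At early gastrula Sox3 morphants had 138 and 194 CPM of *gata2*, against 119 and 197 CPM in controls. The groups overlapped, with replicate 1 below replicate 2 on both sides. The ratio was 1.15 (1.1 to 1.21) in replicate 1 and 0.987 in replicate 2. Its log2 fold change was 0.05 (SE 0.32, edgeR adjusted p 0.999), and 0.07 (SE 0.16, edgeR adjusted p 0.879) with the block.

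*gata3* was the exception in Sox3 morphants at early gastrula, where it was above the controls without overlap. Sox3 morphants had 6.30 and 6.96 CPM, against 4.07 and 4.92 CPM in controls, with ratios of 1.55 (1.2 to 2.02) and 1.41 (1.1 to 1.83). A separation of that kind was common, since 17.9% of the genes tested lay higher in both Sox3 morphants than in both controls. Over the 2 groups the log2 fold change was 0.54 (SE 0.32, edgeR adjusted p 0.999), and 0.54 (SE 0.24, edgeR adjusted p 0.287) with the block. At late blastula the Sox3 libraries held 3 and 2 *gata3* counts in morphants and 3 and 2 in controls, so no difference could have been detected.

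Neither gene was called in Sox3 morphants, and at late blastula *gata3* had too few counts to be tested. At late blastula 0% of 13909 genes passed, 392 had an unadjusted p under 0.05 and DESeq2 called 69 (0.49%), and at early gastrula 0% of 14427 passed, 795 had an unadjusted p under 0.05 and DESeq2 called 188 (1.3%). With the block 1.32% were called at late blastula and 3.35% at early gastrula, neither GATA gene among them.

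The knockdown effects of Foxi2 and Sox3 were then set against each other by an interaction term. At late blastula the Foxi2 effect minus the Sox3 effect was 1.01 on the log2 scale for *gata2* and -1.12 for *gata3*, and at early gastrula 0.17 for *gata2* and -1.79 for *gata3*, each with an edgeR adjusted p of 1. With the block the widest difference was that of *gata3* at early gastrula, -1.60 (SE 0.38), with an edgeR adjusted p of 0.104 where 1.35% of genes passed. For *gata2* at late blastula the blocked difference was 1.48 (SE 0.62, edgeR adjusted p 0.368), where 1.98% passed. The effect of Foxi2 knockdown at early gastrula minus that at late blastula was -0.69 for *gata2* and -0.04 for *gata3*, and that of Sox3 knockdown 0.18 for *gata2* and 0.64 for *gata3*, each with an edgeR adjusted p of 1. None of these 8 differences was called, and with the block the stage differences that passed made up 0% of all genes for Foxi2 knockdown and 0.0738% for Sox3 knockdown. For *gata3*, the late blastula difference and the Sox3 stage difference rest on Sox3 late blastula libraries with 3 counts or fewer. Their sizes therefore carry little information. The gene also had too few counts to be tested in either late blastula knockdown comparison alone.

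The balance between both genes within a library needs no scaling between libraries, and it was examined after the values had been seen, so it is given without a test. Among Foxi2 pairs with more than 3 counts of each gene, the morphant had more *gata2* counts per *gata3* count than its control every time. At early gastrula there were 30.1 in the morphant and 13.0 in the control of replicate 1, and 122 in the morphant and 53.4 in the control of replicate 2. At late blastula there were 111 in the morphant and 14.5 in the control of replicate 2, and 60.4 in the morphant and 15 in the control of replicate 3.

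Set as a ratio of ratios, the Foxi2 morphant exceeded its control 2.31-fold (95% counting interval 1.81 to 2.98) and 2.27-fold (1.13 to 4.64) at early gastrula, and 7.64-fold (1.37 to 41.9) and 4.03-fold (2.62 to 6.28) at late blastula. The Sox3 early gastrula pairs went the other way, with 21.9 in the morphant and 29.4 in the control of replicate 1 and 27.9 in the morphant and 40.0 in the control of replicate 2. Their ratios of ratios were 0.744 (0.569 to 0.969) and 0.698 (0.539 to 0.904). Control libraries of 1 stage also differed, from 13.0 to 53.4 among the 4 at early gastrula, and the Foxi2 morphants and controls overlapped at that stage. Morphants and controls did not overlap in the Sox3 pairs at early gastrula or in the Foxi2 pairs kept at late blastula. Replicate 1 was left out there, with 0 and 1 *gata3* counts. How often other pairs of genes separate in this way was not counted. Each ratio of ratios restates the *gata2* and *gata3* ratios given above and is no separate evidence. The intervals cover counting error only.

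**Figure D3:**
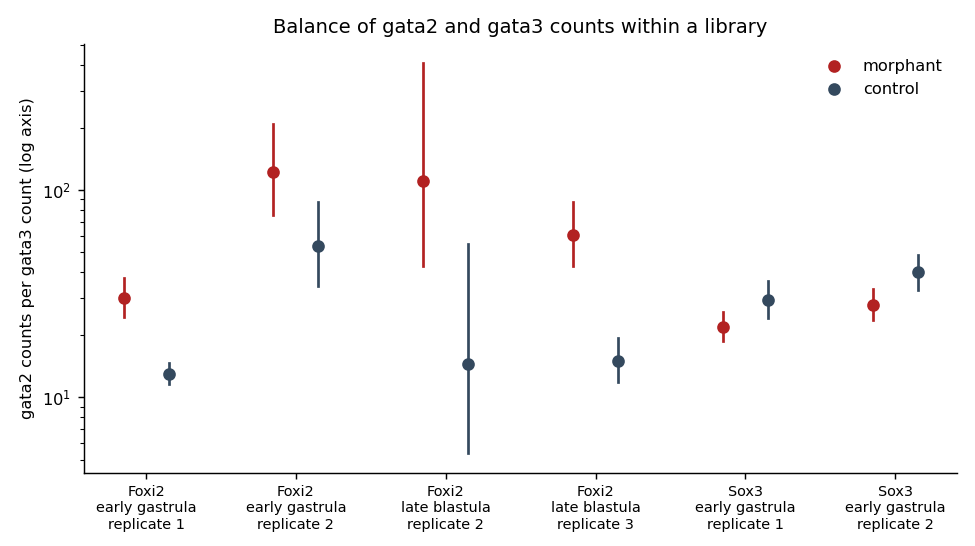
*gata2* counts per *gata3* count on a log axis in the 6 pairs in which both genes had more than 3 counts in both libraries, with morphants in red left of their controls in dark blue. Bars are 95% counting intervals. The morphant lies above its control in the 4 Foxi2 pairs (30.1 beside 13.0 at the smallest values) and below it in the 2 Sox3 pairs.

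In the controls, the share of *gata2* in the summed counts of both genes was 96.3% ± 2.38 (SD, n = 4) at early gastrula and 94.2% ± 1.72 (SD, n = 5) at late blastula. The difference of 2.11 percentage points lay between the SDs of the 2 stages, and it was 3.26 without the Foxi2 early gastrula control of replicate 1. On the log2 scale of the count ratio, with 0.5 added to each count, the early gastrula mean was 4.90 ± 0.868 and the late blastula mean 3.86 ± 0.594, a difference of 1.04 that exceeded both SDs. However, 4 of the late blastula controls held only 1 to 4 *gata3* counts each. At such counts the added 0.5 itself lowers the ratio, so the size of this difference is uncertain. No test is given for this balance.

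The other GATA genes were described beside them. *gata4* was higher in the Foxi2 morphant in all 4 pairs with enough counts, by 1.51-fold to 4.28-fold, and *gata6* in all 5, by 1.06-fold to 1.55-fold. *gata5* was higher in 3 pairs and lower in 2. *gata2* was higher in 4 of 5 pairs, whereas *gata3* was lower in all 4 pairs that gave a ratio. For *gata4* the blocked log2 fold change was 1.22 (SE 0.32, edgeR adjusted p 0.133) at late blastula and 0.78 (SE 0.10, edgeR adjusted p 0.00682) at early gastrula, the second below the size needed for a call. Of the 6 family members, 4 were tested at late blastula and 5 at early gastrula in each knockdown, and 0 were called, with or without the block. Over all genes 0% were called without the block and 0.719% to 3.35% with it, so 0 calls among so few genes is near the background.

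In Sox3 morphants *gata4* was lower in both late blastula pairs, at 0.508 and 0.426 of its controls, and 1.16-fold and 1.09-fold higher at early gastrula. *gata6* was 1.43-fold and 1.27-fold higher at early gastrula, where *gata3* was 1.55-fold and 1.41-fold higher. Every tested GATA gene had a higher estimate at early gastrula than at late blastula in controls, with log2 fold changes of 4.37 for *gata4*, 2.02 for *gata5* and 2.83 for *gata6* beside those of *gata2* and *gata3*, against a median of 0.05 over all genes, but none was called without the block.

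**Figure D4:**
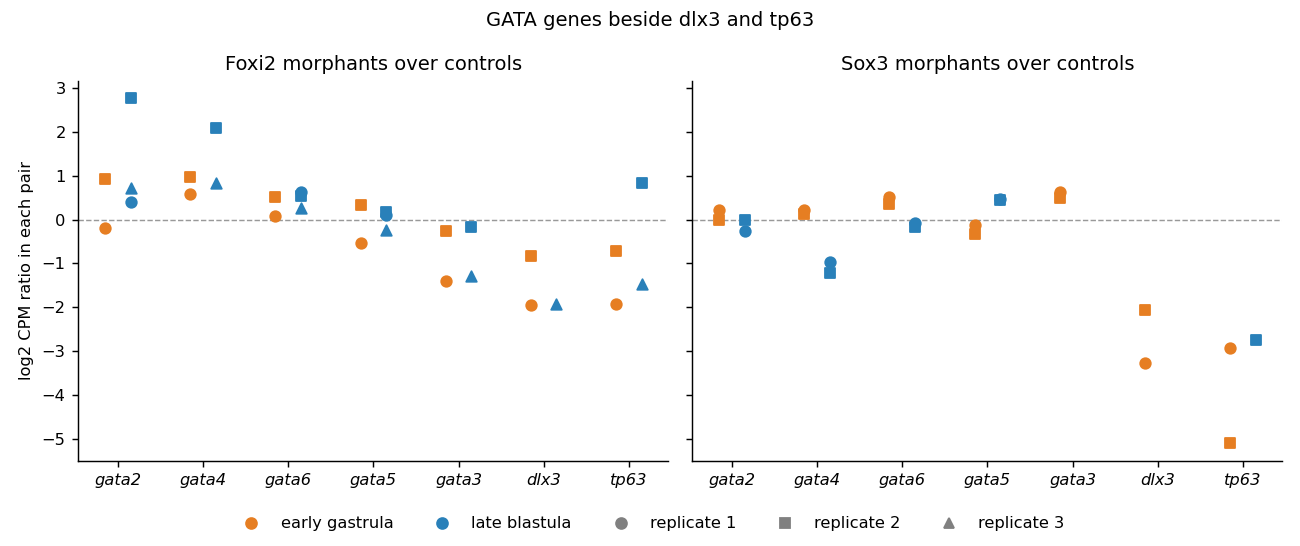
log2 ratio of morphant to control CPM in each pair for the GATA genes, *dlx3* and *tp63*, in Foxi2 pairs (left) and Sox3 pairs (right), with early gastrula in orange, late blastula in blue and marker shapes for replicate numbers. Pairs at or under 3 counts on both sides, or at 0 on either side, are left out. *dlx3* lies below 0 in every pair drawn, while *gata2* in the Foxi2 panel reaches 2.77.

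Other regulators of non-neural ectoderm were counted beside *gata2*. This list and those that follow were chosen with earlier results of these data known, so their counts describe and do not test. The study itself names *foxi1*, *dlx3*, *dlx5*, *tp63*, *tfap2a*, *krt70* and *klf5* as Foxi2 or Sox3 targets, in part from this RNA-seq. With the block, 3 of 11 tested fell in Foxi2 morphants at late blastula, against 0.445% of all genes, namely *foxi1* (log2 fold change -1.84), *krt70* (-1.33) and *dlx5* (-1.08), and 3 of 14 fell at early gastrula, against 0.613% of all genes, namely *dlx3* (-1.68), *tp63* (-1.55) and *klf5* (-1.28). *tp63* encodes the p63 factor that epidermal precursors depend on, and *dlx3* a homeodomain factor of the epidermis. None of the list was called higher, and 10 of 11 estimates were below 0 at late blastula and 11 of 14 at early gastrula. The list had a median of -0.62 at late blastula and -0.65 at early gastrula, where the medians over all genes tested were 0.000264 and -0.000617.

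In Sox3 morphants, with the block, *tfap2a* (-1.21) and *foxi1* (-2.28) fell at late blastula, 2 of 11 tested, against 1.01% of all genes. At early gastrula *tp63* (-3.51), *dlx3* (-2.80), *dlx5* (-2.07) and *tfap2a* (-1.76) fell, 4 of 14 tested, against 1.48% of all genes. No listed gene was called higher. Estimates below 0 numbered 9 of 11 at late blastula, with a list median of -0.30, where the median over all genes was 0.00311. At early gastrula they numbered 9 of 14, with a list median of only -0.0957 against 0.015 over all genes. The summed level of the list in the Sox3 morphant was 0.978 and 1.04 of its control in the early gastrula pairs. *gata2* and *gata3* were not in that list, and at early gastrula their blocked estimates were 0.07 and 0.54. Without the block 0 of these genes were called in any knockdown.

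Because *gata2* responds to BMP signals in the frog embryo, 16 measured BMP target and feedback genes were counted as well. With the block, 0 of 15 tested were called in Foxi2 morphants at either stage, and their medians were -0.30 at late blastula and -0.35 at early gastrula. Estimates below 0 numbered 13 of 15 at late blastula and 9 of 15 at early gastrula. The summed level of the list was nevertheless higher in the Foxi2 morphant in both early gastrula pairs, with 2760 and 1880 CPM against 1980 and 1560 CPM. At late blastula it was higher in 1 of 3 pairs. In Sox3 morphants 0 of 14 were called at late blastula, where 11 of 14 estimates were below 0. Among them, *ventx1.1* (-0.83, edgeR adjusted p 0.00192), *ventx3.2* (-0.94, 0.0151), *ventx3.1* (-0.77, 0.023) and *ventx1.2* (-0.69, 0.0325) passed the adjusted p but not the size. So did *ventx1.1* in Foxi2 morphants at late blastula (-0.91, edgeR adjusted p 0.0357). At early gastrula 1 of 15 fell in Sox3 morphants, *szl*, which encodes the BMP feedback inhibitor Sizzled (-1.97). A further list held BMP antagonists together with the secreted BMP regulators *bmp1* and *twsg1*. In it *cer1*, encoding the antagonist Cerberus, rose in Foxi2 morphants at early gastrula (1.02), the only call of 6 tested, where 0.855% of all genes rose. In the same Foxi2 morphants *gata2* had a blocked estimate of 0.36. Of that list at late blastula, *nog* in Foxi2 morphants (0.80, edgeR adjusted p 0.0382) passed the adjusted p but not the size. The same held for *chrd.1* in Sox3 morphants (-0.92, edgeR adjusted p 0.00342). Estimates of the list below 0 numbered 3 of 6 for Foxi2 and 6 of 6 for Sox3 at that stage. Among BMP ligands, receptors and Smads the block called *bmp7.1* (1.31) and *bmp7.2* (-1.53) of 11 tested in Sox3 morphants at early gastrula and 0 in the other 3 knockdown comparisons. Some late blastula estimates of the ligand, receptor and Smad list also passed the adjusted p but not the size needed for a call. These were *bmp4* in Foxi2 morphants (-0.77, edgeR adjusted p 0.0118), and *bmp4* (-0.99, 0.000527) and *bmp7.2* (-0.62, 0.00312) in Sox3 morphants. In these late blastula fits 6 of 10 estimates of the list were below 0 for Foxi2 and 4 of 10 for Sox3. Over all genes, that Sox3 early gastrula fit called 1.48% lower and 1.87% higher, and the other fits called 0.719% and 1.47% for Foxi2 and 1.32% for Sox3 at late blastula.

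Markers of other regions of the embryo changed in the same fits. In Foxi2 morphants at late blastula the block called *otx2* (1.53), a regulator of anterior neural tissue, and the organizer gene *gsc* (1.46), both higher. That was 1 call in 11 tested neural genes and 1 in 6 tested organizer genes, where 0.273% of all genes rose. The study counts both *otx2* and *gsc* among endodermal genes in its gastrula explants, so the *otx2* call need not stand for neural tissue. In Sox3 morphants at late blastula the neural genes *foxd4l1.1* (-3.08), *foxd4l1.2* (-3.01), *sox21* (-2.14) and *irx1* (-1.51) fell, as did *tbxt* of the mesoderm (-2.32). At early gastrula *sox21* (-2.81), *foxd4l1.2* (-1.92) and *foxd4l1.1* (-1.24) fell in Sox3 morphants, and *sox3* itself (1.42) and the mesoderm gene *msgn1* (1.52) rose, as did 1.87% of all genes. Blood and endothelial markers had 0 calls. The part of these changes in the *gata2* and *gata3* values was not tested.

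GATA factors work with cofactors, of which *zfpm1* (FOG1) binds GATA1 and its relatives directly and *ldb1* bridges GATA complexes. Foxi2 morphants at late blastula had 77.4, 49.8 and 23.7 CPM of *zfpm1*, against 74.6, 59.5 and 20.6 CPM in controls. It was thus highest in replicate 1 and lowest in replicate 3 on both sides, the reverse of *gata2*. *ldb1* varied far less, with 195, 188 and 198 CPM in the same morphants, against 219, 222 and 257 CPM in controls. No cofactor was called in either knockdown, with 3 tested in each comparison except 2 in the Sox3 late blastula one.

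Over the 18 libraries, the genes whose log2 CPM went most closely with *gata2* among 15318 were *osr1* (Pearson r 0.991), *hhex* (0.990), *osr2* (0.987), *prdm12* (0.987) and *rnd1* (0.985). *osr1* and *osr2* encode odd-skipped zinc finger factors, and *hhex* a homeodomain factor of the anterior endoderm. For *gata3* they were *serbp1* (0.984), *lef1* (0.979), *alpl* (0.979), *darmin* (0.979) and *mrps18a* (0.978). *lef1* encodes a mediator of Wnt signals. The correlation of *gata2* with *gata4* was 0.981, above its 0.935 with *gata3*. These libraries share stage and replicate number, both of which moved many genes at once, so the values only order the genes.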

How the data were processed

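Poly(A) RNA-seq libraries of whole embryos were sequenced by the authors, who deposited 4 tables, 1 per factor and stage. The deposited values are RSEM expected counts per gene (estimated counts), not scaled between libraries as their totals show. The submitters' processing notes name RSEM 1.2.12 and Bowtie2 2.2.7, while the study's methods name RSEM with STAR on the V10.0 genome. Such estimates can split reads between near-identical copies. No column was left out.

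Expected counts were rounded and fitted in R 4.3.3 with the quasi-likelihood test of edgeR 4.0.16 (TMM factors, filterByExpr, Benjamini-Hochberg adjustment over all genes tested). A knockdown or stage call needed an adjusted p under 0.05 and a log2 fold change of at least 1 in size, and an interaction only the adjusted p. The filter kept 12802 to 14933 genes per comparison. Alternatives were DESeq2 1.42.0, other scalings and filters, unrounded counts, a single fit of all 18 libraries, each library left out, and the replicate number as a block. The fits were also run on simulated counts with no replicate effect and less spread than the unblocked fits found here. That run checked the code and not the power of the tests in these data. Library totals of 12740571 to 27866261 counts set the precision. Intervals are exact binomial at 95%, except those of the ratios of ratios, which are the 95% odds ratio intervals of Fisher's exact test.

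Same-numbered morphant and control libraries deviated together in all 9 pairs (correlation of deviations 0.747 to 0.942), so the numbers were read as pairs. The labels do not say what a number marks, and in groups of 2 libraries the deviations are mirror images by construction. The members and gene lists were chosen with earlier results of these data known. Named genes were *gata2*, *gata3*, the targets, listed genes called in a fit (otherwise at most the 4 of a list with the highest mean CPM), and the 5 genes closest to each member by Pearson r of log2 CPM (prior count 2). *gata1*, as a blood marker, *bmp4*, the *ventx* genes, *nog*, *chrd.1*, *bmp1* and *twsg1* were named outside that rule. Gene names followed the tables, of which 26531 matched a RefSeq symbol on UCB_Xtro_10.0. Some results for listed genes are not reported here.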

Additional observations from a re-analysis of the deposited data

Results flagged for a closer look

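At late blastula *gata2* was higher in the morphant in every Foxi2 pair (ratios 1.33, 6.81 and 1.65) and lower in the morphant in every Sox3 pair (0.836 and 0.995), a gap of 1.43 between the mean log2 ratios. It drew attention because the ratios of the knockdowns lay on opposite sides of 1, although the 95% counting intervals of both Sox3 pairs and of Foxi2 replicate 1 included no difference. The test of the difference itself was not past the threshold, with an edgeR adjusted p of 1, and of 0.368 with the replicate block. Of all genes tested, 18.3% were higher in every Foxi2 late blastula pair. The share that also lay lower in every Sox3 pair was not counted.

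At early gastrula *gata3* was lower in the morphant in both Foxi2 pairs (0.378 and 0.840) and higher in both Sox3 pairs (1.55 and 1.41), a gap of -1.39 between the mean log2 ratios, and it drew attention for the same reason, although the interval of Foxi2 replicate 2 (0.413 to 1.69) included no difference. The edgeR adjusted p of the difference was 1, and 0.104 with the replicate block. Of all genes tested, 32.4% were lower in both Foxi2 early gastrula pairs. The share that also lay higher in both Sox3 pairs was not counted.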

How the results depend on the processing

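No knockdown effect of *gata2* or *gata3*, and no difference between effects, was called under any alternative, and no adjusted p there fell below 0.0687, but most signs depended on single libraries. With each library left out in turn, the late blastula log2 fold change of *gata2* had a lowest and a highest value of -1.15 and 4.63 in Foxi2 morphants and of -0.63 and 0.28 in Sox3 morphants. At early gastrula the values were -0.31 and 1.08 in Foxi2 morphants and -0.27 and 0.44 in Sox3 morphants. That of *gata3* at early gastrula ran from -2.81 to 1.31 in Foxi2 morphants. The Foxi2 minus Sox3 difference of *gata2* lay between -1.07 and 4.75 at late blastula and, for early gastrula, between -0.33 and 1.04, and that of *gata3* at early gastrula from -3.34 to 0.78. The early gastrula minus late blastula difference ran from -4.39 to 1.35 for *gata2* and from -3.63 to 2.72 for *gata3* in the Foxi2 series, and from -0.25 to 0.67 for *gata2* in the Sox3 series. Where an omission left 1 library in a group, that library was taken to vary like the others.

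The stage difference in controls ran from 3.34 to 6.18 for *gata2* and from 3.00 to 5.68 for *gata3* over the omissions. For *gata2* it was also called in a single fit of all 18 libraries (4.32, edgeR adjusted p 0.0397) and in Sox3 controls alone (6.23), as was *gata3* in Sox3 controls alone (5.50). With the replicate block it was 6.197 (edgeR adjusted p 0.00933) for *gata2* and 5.33 (0.0142) for *gata3*, but same-numbered controls did not deviate together across stages in the Foxi2 series (correlation -0.335, against 0.746 in the Sox3 series). The block also turned the Foxi2 stage difference of *gata3* to 0.077, and changed no other call of either gene. Over all genes, the block called 92 and 194 genes in Foxi2 morphants at late blastula and early gastrula, and 183 and 484 in Sox3 morphants, against 0 in each without it. For the stage difference it called 2110 (14.3%), a single fit of all libraries 1114, library sizes alone 875 and no filter 503, against 0. Depth limited *gata3*, whose late blastula counts allowed a ratio in only 2 of 5 pairs.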
